A study of Mus musculus with 2 samples.

Results

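Barcodes that carried T cell and macrophage transcripts together made up 563 of the 14179 barcodes kept from mouse lung. They were chosen by their counts: at least 500 genes, at most 10% mitochondrial UMIs, at least 2 UMIs of Cd3d, Cd3e and Cd3g together, and at least 20 UMIs of C1qa, C1qb and C1qc together. A UMI is a molecular tag that counts 1 captured RNA molecule. The Cd3 genes encode signalling chains of the T cell receptor complex, and the C1q genes encode the chains of a complement protein made by many tissue macrophages. They are called Cd3 and C1q barcodes here, and the 6 genes of the rule are given below as a description.

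The labels describe 1 Siah1a/2 KO sample and 1 WT sample of mice that had received urethane, a carcinogen that induces lung tumours, with lungs taken 7 weeks after the first dose. Living CD45-positive cells, which are white blood cells, were sorted from digested lungs and captured in droplets with 3' chemistry. Sex, age, strain and the number of animals per sample were not given in the sources used here, nor was the allele or the cell type in which the Siah genes were lost. Each barcode ends in 1 or 2, and the labels do not say which sample either ending belongs to. The libraries are therefore called library 1 and library 2, carry no genotype, and are not compared for one. With 1 library of each kind, differences between kinds of barcode are described without tests, and the intervals are exact 95% binomial intervals that cover counting error alone.

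Library 1 held 8522 barcodes with 86227008 UMIs, and library 2 held 6479 barcodes with 59459790 UMIs. The filter left out 456 and 366 barcodes of these libraries, and 0 of those left out met both thresholds. The libraries shared 11 barcode sequences, and 2 of the Cd3 and C1q barcodes carried a shared one.

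In a droplet experiment each barcode stands for a droplet, and a droplet can hold more than 1 cell or a pair of cells that were still attached. T cells recognise antigen on other cells through their receptor, and regulatory T cells, marked by Foxp3, restrain other T cells. Macrophages engulf dying cells and present antigen to T cells, so contact between the lineages is part of their known biology. Whether a barcode stood for a T cell and a macrophage captured apart, for an attached pair, or for a single cell with RNA of both lineages cannot be told apart from these counts.

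Library 1 held 355 Cd3 and C1q barcodes, which were 4.40% (3.96 to 4.87%) of its kept barcodes. Library 2 held 208, or 3.40% (2.96 to 3.89%). They were 8.27% (7.46 to 9.14%) of all barcodes that passed the Cd3 threshold in library 1 and 6.30% (5.50 to 7.19%) in library 2. Of all barcodes that passed the C1q threshold they were 35.8% (32.8 to 38.9%) in library 1 and 35.9% (31.95 to 39.9%) in library 2. Both shares count the same barcodes. They differ because fewer barcodes passed the C1q threshold, 991 in library 1 and 580 in library 2, than the Cd3 threshold, 4292 and 3301. The comparison barcodes were T-only barcodes, with at least 2 Cd3 UMIs and at most 4 C1q UMIs (3800 in library 1 and 3030 in library 2), and macrophage-only barcodes, with at least 20 C1q UMIs and 0 Cd3 UMIs (454 and 294).

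Among the rule genes, Cd3e, which encodes the epsilon chain, had a median of 4 UMIs (quartiles 1 and 8) in Cd3 and C1q barcodes of library 1 and of 5 (3 and 8) in library 2, against 4 in T-only barcodes of either library. C1qa had a median of 80 UMIs (30 and 145) in Cd3 and C1q barcodes of library 1 and of 60 (26 and 119.8) in library 2, against 49.5 and 45.5 in macrophage-only barcodes. In GRCm38 the 3 C1q genes neighbour each other on the minus strand of chromosome 4, with C1qb at 136880129 to 136886187, C1qc at 136889804 to 136893065 and C1qa at 136895917 to 136898803. The Cd3 genes neighbour each other on chromosome 9, with Cd3g at 44969572 to 44980431 (minus strand), Cd3d at 44981786 to 44987339 (plus strand) and Cd3e at 44998740 to 45009627 (minus strand).

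The C1q threshold fell in a sparsely filled range. Among barcodes that passed the Cd3 threshold, 39 in library 1 and 21 in library 2 lay just inside it, at 20 to 39 C1q UMIs, and 26 and 35 lay just outside, at 10 to 19. The Cd3 threshold did not fall in a gap in library 1. There, 68 Cd3 and C1q barcodes had only 2 or 3 Cd3 UMIs, and 182 C1q barcodes just outside the rule had 1.

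The label did not hold for those lowest barcodes. A list of 12 T cell genes outside the rule, among them Trac and Trbc2 for receptor chains and the kinase Lck, had a median sum of 2 UMIs in the 68 barcodes of library 1 with 2 or 3 Cd3 UMIs. The same sum was 1 in C1q barcodes with 1 Cd3 UMI and 1 in macrophage-only barcodes. It was 19 in the 21 barcodes with 4 to 9 Cd3 UMIs, 38 in the 46 with 10 to 19 and 77 in the 220 with 20 or more. In library 2 only 9 barcodes had 2 or 3 Cd3 UMIs, with a median sum of 1, and 166 had 20 or more, with a median sum of 66. The barcodes at 2 or 3 Cd3 UMIs were thus like macrophage-only barcodes in T cell genes. Results are given for all 563 barcodes and, where it matters, for the 266 in library 1 and 192 in library 2 with at least 10 Cd3 UMIs, a level chosen after the values were seen.

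**Figure D1:**
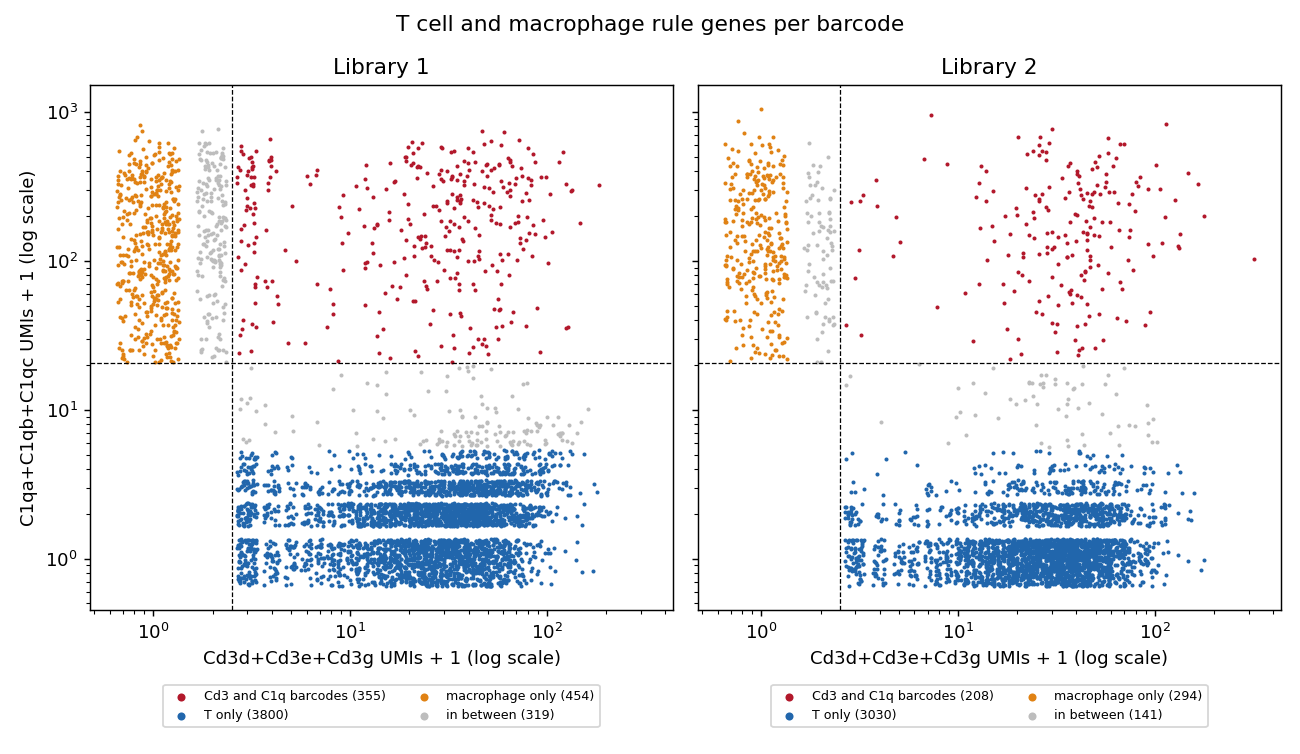
Cd3 UMIs plus 1 (x axis) and C1q UMIs plus 1 (y axis) of each barcode that passed either threshold, both axes logarithmic, with points spread slightly sideways and up to separate ties and dashed lines at the thresholds. Of the red Cd3 and C1q barcodes, 68 in library 1 and 9 in library 2 sit at 2 or 3 Cd3 UMIs beside the grey barcodes with 1.

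Cd3 and C1q barcodes were deeper than either single kind. Their median depth was 21263 UMIs in library 1 (quartiles 16445.5 and 28386.5) and 20893.5 UMIs in library 2 (16228 and 28370.5). T-only barcodes had a median of 7712 UMIs in library 1 and 7024.5 in library 2, and macrophage-only barcodes 11699 and 11998.5. The ratio of medians was 2.76 in library 1 and 2.97 in library 2 over T-only barcodes, and 1.82 and 1.74 over macrophage-only barcodes. The medians of the single kinds summed to 19411 UMIs in library 1 and 19023 in library 2, and the Cd3 and C1q barcodes stood at 1.10 times that sum in either library.

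Depth did not separate them fully from single-lineage barcodes. In library 1, 41.1% of Cd3 and C1q barcodes lay above the 95th percentile of macrophage-only barcodes, and in library 2 40.4% did. The shallowest had 2900 UMIs in library 1 and 4899 in library 2. They detected a median of 4655 genes in library 1, against 2526.5 in T-only and 3191.5 in macrophage-only barcodes, and 4733 in library 2, against 2425 and 3313. After each barcode was thinned to 5000 UMIs the medians were 2052 genes in Cd3 and C1q barcodes, 1941 in T-only and 1921 in macrophage-only barcodes of library 1, and 2102, 1964 and 1959 in library 2. Thinning left out 2 and 1 Cd3 and C1q barcodes, 787 and 628 T-only barcodes and 33 and 11 macrophage-only barcodes. The median mitochondrial share was 1.03% in Cd3 and C1q barcodes, against 1.29% in T-only and 0.955% in macrophage-only barcodes of library 1, and 1.08%, against 1.54% and 1.12%, in library 2.

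**Figure D2:**
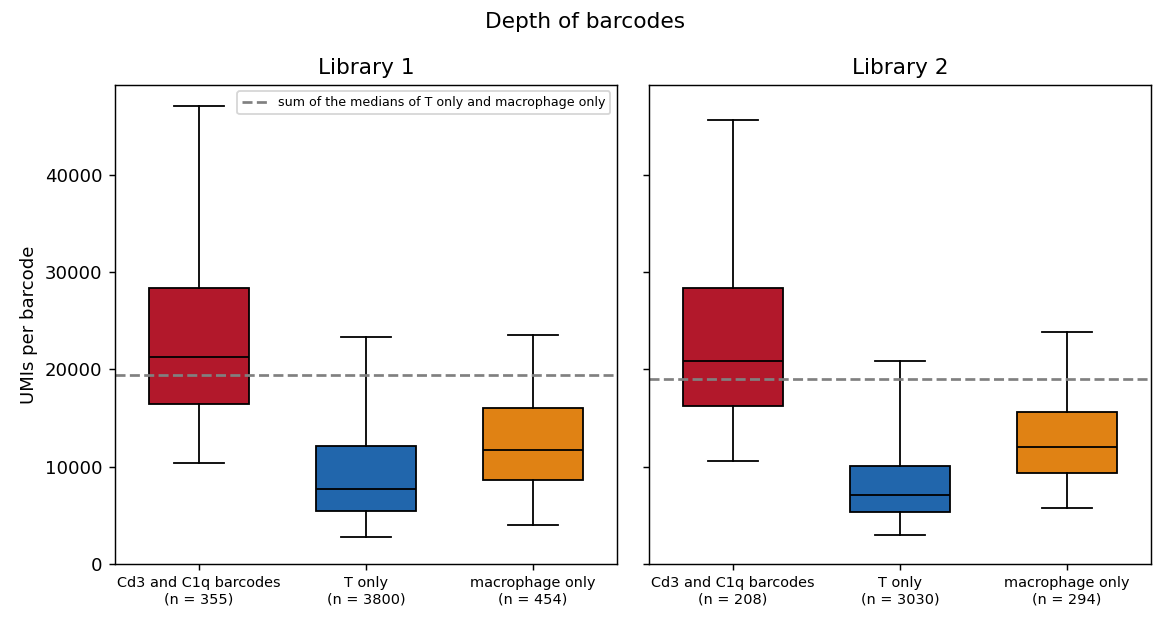
UMIs per barcode (linear axis from 0) in Cd3 and C1q, T-only and macrophage-only barcodes of each library, as boxes from the lower to the upper quartile with the median as a line and whiskers at the 5th and 95th percentiles. The medians of Cd3 and C1q barcodes, 21263 and 20893.5 UMIs, lie just above the dashed sum of the medians of the single kinds, 19411 and 19023 UMIs.

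The RNA content of each lineage was at least that of the single kind. The 12 T cell genes averaged 62.8 UMIs per Cd3 and C1q barcode, against 56.2 per T-only barcode, in library 1, a ratio of 1.12, and 71.5 against 54.8 in library 2, a ratio of 1.31. A list of 12 macrophage genes outside the rule, among them Csf1r, the receptor for the growth factor CSF1, Adgre1, which encodes F4/80, and the lipid carrier Apoe, averaged 250.9 UMIs per Cd3 and C1q barcode, against 188.8 per macrophage-only barcode, in library 1, a ratio of 1.33. In library 2 it averaged 203.3 against 190.5, a ratio of 1.07. Of this list Lyz2, a lysozyme gene of many myeloid cells, was low in every kind, at 10.5 CPM (UMIs scaled to a total of 1000000) in Cd3 and C1q barcodes and 18.7 CPM in macrophage-only barcodes of library 1, and 12.1 and 16.9 CPM in library 2. As shares of all UMIs both lists were lower than in the single kinds: the T cell list stood at 0.459 times its T-only share in library 1 and 0.489 times in library 2, and the macrophage list at 0.707 and 0.594 times its macrophage-only share.

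CD8 T cells with Pdcd1, the gene of the inhibitory receptor PD-1, were the largest T subset among the Cd3 and C1q barcodes at full depth. Subsets were called by UMIs: Foxp3 at least 1, otherwise Trdc at least 2, otherwise Cd8a and Cd8b1 together at least 2 and above Cd4, or Cd4 at least 1 and above Cd8. The CD8 subset with Pdcd1 held 160 of 355 Cd3 and C1q barcodes, or 45.1% (39.8 to 50.4%), in library 1, against 43.5% (41.9 to 45.1%) of T-only barcodes. In library 2 it held 105 of 208, or 50.5% (43.5 to 57.5%), against 45.9% (44.1 to 47.7%). The intervals overlapped in either library at full depth. After thinning to 5000 UMIs they were apart, with 24.4% (20.0 to 29.2%) of Cd3 and C1q barcodes, against 43.5% (41.7 to 45.3%) of T-only barcodes, in library 1, and 21.7% (16.3 to 28.0%) against 45.7% (43.7 to 47.7%) in library 2. Neither depth matches the T cell content of the kinds: Cd3 and C1q barcodes hold more UMIs in all at full depth and fewer T cell UMIs after thinning. Subset shares are therefore given at both depths and no order is read from a share that differs between them.

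The Foxp3 subset held 65 Cd3 and C1q barcodes, or 18.3% (14.4 to 22.7%), in library 1, against 13.1% (12 to 14.2%) of T-only barcodes. In library 2 it held 37, or 17.8% (12.8 to 23.7%), against 9.47% (8.45 to 10.6%). The intervals did not overlap at full depth. Of the Cd3 and C1q barcodes with Foxp3, 15 and 5 rested on a single UMI. Macrophage-only barcodes gave a background of 1.32% with a Foxp3 UMI in library 1 and 0.340% in library 2. The shares were not at equal depth, and CPM ran the other way: Foxp3 stood at 27.9 CPM in Cd3 and C1q barcodes, against 44.0 CPM in T-only barcodes, in library 1, and at 25.6 against 31.8 CPM in library 2, so no order was read from the shares. Per 100 Cd3 UMIs, Foxp3 had 1.99 UMIs in Cd3 and C1q barcodes, against 1.37 in T-only barcodes, in library 1, and 1.39 against 0.873 in library 2. That ratio was therefore higher in the Cd3 and C1q barcodes of either library. With at least 10 Cd3 UMIs in both kinds, the Foxp3 shares were 22.2% (17.3 to 27.7%) against 13.4% (12.2 to 14.6%) in library 1 and 18.8% (13.5 to 25%) against 8.99% (7.93 to 10.1%) in library 2, with median sums of the 12 T cell genes of 66.5 against 55 and of 63 against 52. After thinning to 5000 UMIs the shares over all barcodes were 9.07% (6.28 to 12.6%) against 9.13% (8.12 to 10.2%) in library 1 and 9.66% (6.0 to 14.5%) against 6.41% (5.47 to 7.47%) in library 2, with intervals that overlapped.

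CD8 T cells without Pdcd1 made up 9.01% (6.25 to 12.5%) of Cd3 and C1q barcodes, against 18.4% (17.2 to 19.7%) of T-only barcodes, in library 1, and 18.8% (13.7 to 24.7%) against 22.8% (21.3 to 24.3%) in library 2. The intervals were apart in library 1 and overlapped in library 2. After thinning the subset held 21.5% (17.4 to 26.2%) against 23.6% (22.1 to 25.1%) in library 1, with intervals that overlapped, and 36.2% (29.7 to 43.2%) against 27.2% (25.5 to 29.1%) in library 2, where the order turned. It was then larger than CD8 with Pdcd1 among the Cd3 and C1q barcodes of library 2. Gamma-delta T cells, called by the receptor constant gene Trdc, numbered 6 and 2 Cd3 and C1q barcodes, or 1.69% against 4.32% of T-only barcodes in library 1 and 0.962% against 3.70% in library 2. After thinning 1 of 353 and 0 of 207 Cd3 and C1q barcodes were called so, against 3.12% and 2.71% of T-only barcodes. Per 100 Cd3 UMIs, Trdc had 0.285 UMIs in Cd3 and C1q barcodes, against 1.44 in T-only barcodes, in library 1, and 0.266 against 1.30 in library 2. CD4 T cells without Foxp3 were few, at 3.66% against 4.71% in library 1 and 4.81% against 5.28% in library 2. Barcodes that fitted no subset were 22.3% against 16.0% in library 1 and 7.21% against 12.8% in library 2, and after thinning 41.6% against 18.1% and 29.0% against 15.1%. Of the 68 barcodes of library 1 with 2 or 3 Cd3 UMIs 95.6% fitted none.

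Read the other way, 11.1% (8.70 to 14%) of all Foxp3 barcodes that passed the Cd3 threshold also passed the C1q threshold in library 1, and 11.2% (7.99 to 15.1%) in library 2. For CD8 barcodes with Pdcd1 the share was 8.48% (7.26 to 9.83%) and 6.85% (5.64 to 8.23%), for those without Pdcd1 4.29% (2.95 to 6.0%) and 5.25% (3.76 to 7.11%), and for Trdc barcodes 3.41% (1.26 to 7.27%) and 1.74% (0.211 to 6.14%). These shares are at full depth, where the calls depend on the depth of the barcode, so no order of the subsets was read from them. Foxp3 and at least 2 Cd8a or Cd8b1 UMIs occurred together in 5.92% (3.70 to 8.90%) of Cd3 and C1q barcodes, against 2.71% (2.22 to 3.28%) of T-only barcodes, in library 1, and in 8.65% (5.21 to 13.3%) against 1.85% (1.40 to 2.39%) in library 2. After thinning the values were 1.42% (0.462 to 3.27%) against 1.49% (1.09 to 1.99%) in library 1, with intervals that overlapped, and 4.83% (2.34 to 8.70%) against 1.17% (0.776 to 1.68%) in library 2.

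Proliferation genes were more often detected in the Cd3 and C1q barcodes at full depth. At least 2 UMIs of Mki67 and Top2a, genes of dividing cells, were found in 35.8% of them, against 19.8% of T-only and 11.2% of macrophage-only barcodes, in library 1, and in 33.7%, against 15.1% and 9.86%, in library 2. At 5000 UMIs the shares were 15.6%, against 14.4% and 5.23%, in library 1, and 10.6%, against 10.7% and 3.89%, in library 2. The shares of Cd3 and C1q and of T-only barcodes were thus close at equal total depth. At that depth Cd3 and C1q barcodes hold fewer T cell UMIs, and shares at equal T cell content were not tested. Cell cycle genes are set against the mixture below. Cycling T-only barcodes were themselves deep, with medians of 15465.5 and 12447 UMIs, against 6955.5 and 6695 UMIs in those not cycling.

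**Figure D3:**
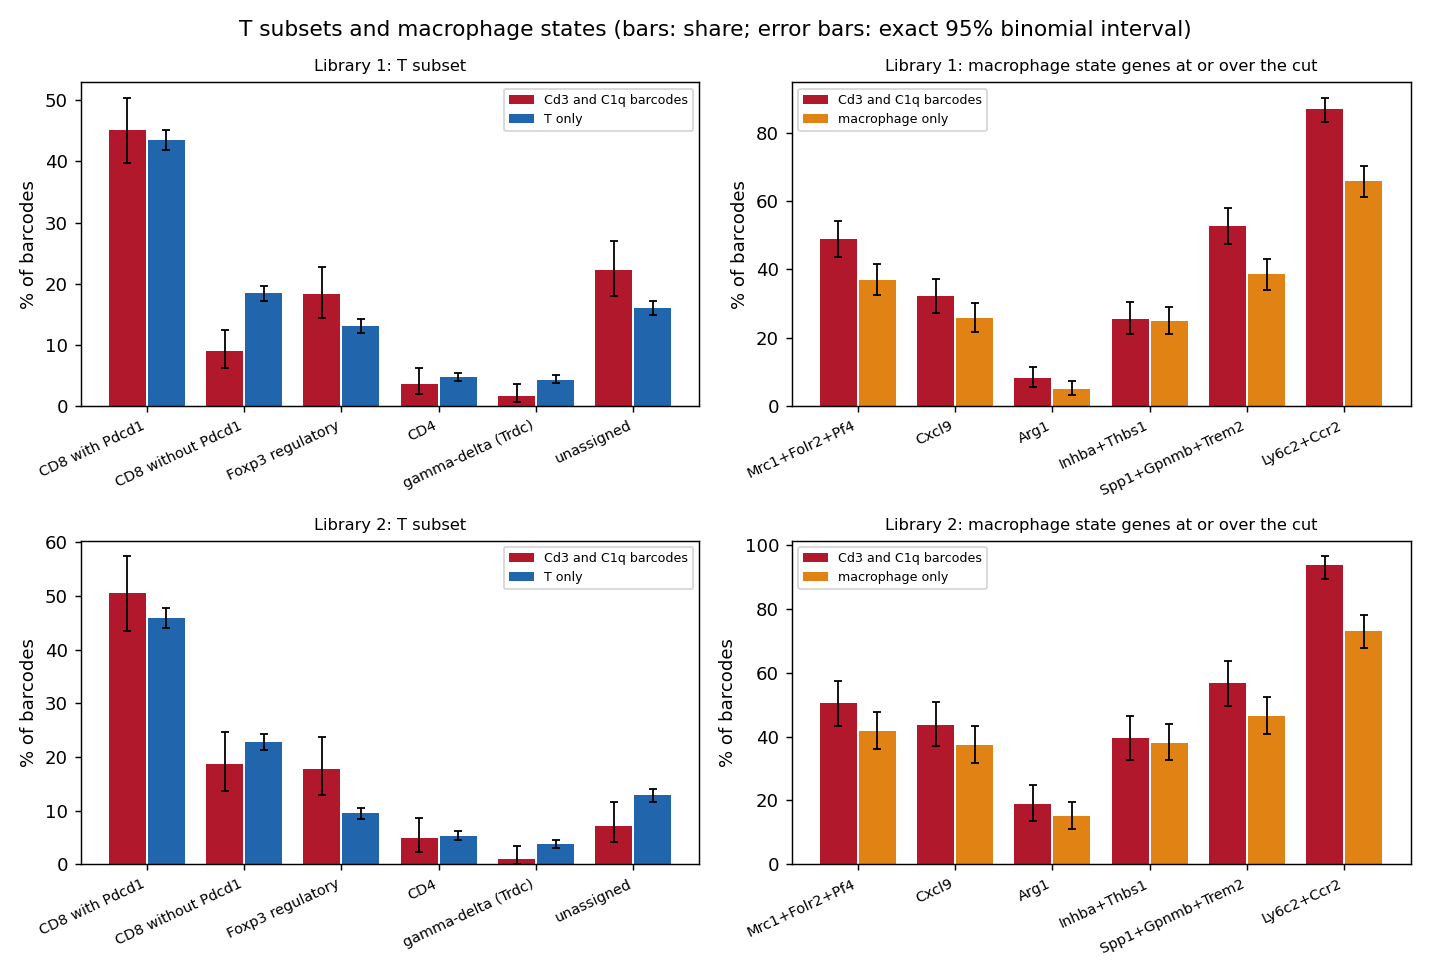
Share of barcodes (y axis, % of barcodes, from 0) in each T subset (left) and at or over the cut for each macrophage state (right), in library 1 (top) and library 2 (bottom), for Cd3 and C1q barcodes beside T-only or macrophage-only barcodes, with exact 95% binomial intervals. The Foxp3 bars, 18.3% against 13.1% and 17.8% against 9.47%, have intervals that do not overlap at the full depth shown, while those of CD8 with Pdcd1 do.

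On the macrophage side the Cd3 and C1q barcodes spanned every state seen in macrophage-only barcodes. A barcode could be in several states, each called by a UMI cut. At least 5 UMIs of Mrc1, Folr2 and Pf4, the mannose receptor, a folate receptor and a platelet-type chemokine of tissue macrophages, were found in 49.0% (43.7 to 54.3%) of Cd3 and C1q barcodes, against 37.0% (32.5 to 41.6%) of macrophage-only barcodes, in library 1, and in 50.5% (43.5 to 57.5%) against 41.8% (36.1 to 47.7%) in library 2. At least 3 UMIs of Cxcl9, an interferon-gamma-induced chemokine that attracts T cells, were found in 32.1% (27.3 to 37.2%) against 25.8% (21.8 to 30.1%) in library 1 and in 43.8% (36.9 to 50.8%) against 37.4% (31.9 to 43.2%) in library 2. At least 3 UMIs of Arg1, the arginine-degrading enzyme arginase 1, were found in 8.17% (5.54 to 11.5%) against 4.85% (3.06 to 7.25%) in library 1 and in 18.8% (13.7 to 24.7%) against 15.0% (11.1 to 19.6%) in library 2. The Cxcl9 and Arg1 intervals overlapped in either library, and those of the Mrc1 group overlapped in library 2 alone. Of the Cd3 and C1q barcodes, 36 and 24 lay within 1 UMI of the Mrc1 group's cut, 26 and 23 of the Cxcl9 cut and 11 and 13 of the Arg1 cut. T-only barcodes, as a background, passed the Mrc1 group's cut in 0.263% and 0.627%, the Cxcl9 cut in 1.5% and 1.88% and the Arg1 cut in 0.474% and 0.396%.

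Scaled to C1q UMIs, Mrc1 alone and Arg1 were somewhat higher and Cxcl9 was lower in Cd3 and C1q barcodes of either library. The Mrc1 group as a whole differed in order between the libraries. The gap was widest for Cxcl9 in library 1, and none of these differences was tested. Per 1000 C1q UMIs, Mrc1 had 22.2 UMIs in Cd3 and C1q barcodes, against 21.8 in macrophage-only barcodes, in library 1, and 24.2 against 22.2 in library 2. The whole Mrc1 group had 59.0 against 60.1 in library 1 and 69.5 against 62.0 in library 2. Within it Pf4 was lower in library 1 alone and Folr2 in library 2 alone. Cxcl9 had 42.4 against 62.9 in library 1 and 72.1 against 77.5 in library 2, and Arg1 had 6.19 against 5.06 and 15.5 against 14.6. At 5000 UMIs the Mrc1 group was found in 20.4% against 21.1% in library 1 and in 19.3% against 25.8% in library 2, so the order at full depth turned. Cxcl9 was then found in 15.9% against 21.6% and in 27.1% against 26.5%, and Arg1 in 3.40% against 3.80% and in 8.70% against 10.2%. Counts were sometimes held by few barcodes: the highest Arg1 barcode gave 17.6% of the Arg1 UMIs of Cd3 and C1q barcodes in library 1 and 16.1% in library 2.

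The remaining state genes were less specific to macrophages. At least 3 UMIs of Inhba, an activin subunit, and Thbs1, the matrix protein thrombospondin 1, were found in 25.6% of Cd3 and C1q barcodes, against 24.9% of macrophage-only barcodes, in library 1 and in 39.4% against 38.1% in library 2, and at 5000 UMIs in 11.6% against 15.4% and in 15.9% against 25.1%. Spp1, Gpnmb and Trem2, genes of lipid-laden and scavenging macrophages, reached 5 UMIs in 52.7% against 38.5% in library 1 and in 56.7% against 46.6% in library 2. At 5000 UMIs the shares were 11.05% (7.98 to 14.8%) against 17.1% (13.6 to 21.05%) in library 1. In library 2 they were 14% (9.59 to 19.5%) against 15.2% (11.2 to 19.9%), and the intervals overlapped in either library. T-only barcodes reached the cut in 11.1% and 7.86% at full depth, and Spp1, the secreted protein osteopontin, stood at 205 and 262 CPM in Cd3 and C1q barcodes, 496 and 411 CPM in T-only barcodes and 210 and 157 CPM in macrophage-only barcodes. Ly6c2 and Ccr2, used here as monocyte genes, reached 5 UMIs in 87.0% of Cd3 and C1q barcodes in library 1 and in 93.8% in library 2, against 65.9% and 73.1% of macrophage-only barcodes and 71.8% and 76.5% of T-only barcodes. They do not set the lineages apart in these libraries.

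Among the C1q barcodes in each state, 35.5 to 48.3% were Cd3 and C1q barcodes. The lowest was the Inhba and Thbs1 state of library 2 (29.3 to 42.0%), and the highest was the Arg1 state of library 1, with 29 of 60 barcodes (35.2 to 61.6%). Over all C1q barcodes the share was 35.8% in library 1 and 35.9% in library 2. Intervals that lay above it were those of the Ly6c2 and Ccr2 group in library 1 (39.4 to 46.8%) and library 2 (37.3 to 46.5%), and of the Mrc1 group (36.6 to 46.2%) and the Spp1 group (36.6 to 45.9%) in library 1. The calls are at full depth, at which Cd3 and C1q barcodes are the deeper kind.

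T subsets and macrophage states paired about as often as their separate frequencies gave. Over Cd3 and C1q barcodes with at least 10 Cd3 UMIs, each pair's count was set against the product of its 2 frequencies. The most frequent pair apart from the Ly6c2 and Ccr2 group was CD8 with Pdcd1 and the Mrc1 group in library 1, in 84 barcodes, against a product of 77.9, and CD8 with Pdcd1 and the Spp1 group in library 2, in 57 barcodes, against 60.1. In library 2 CD8 with Pdcd1 and the Mrc1 group occurred together in 51 barcodes, against 50.4. Spp1 was higher in T-only than in macrophage-only barcodes, so pairs with the Spp1 group need not mark a macrophage state. CD8 with Pdcd1 and Cxcl9 occurred together in 58 barcodes, against 51.9, in library 1, and in 48, against 44.4, in library 2. Foxp3 and Cxcl9 occurred together in 17 barcodes, against 19.5, in library 1, and in 17, against 15.4, in library 2. Foxp3 and the Spp1 group occurred together in 34, against 31.3, in library 1, and in 25, against 20.8, in library 2. Foxp3 and Arg1 occurred together in 5, against 5.10, in library 1, and in 9, against 6.56, in library 2. For pairs with a product of at least 10 the ratio ran between 0.871 and 1.12 in library 1 (15 pairs) and between 0.846 and 1.2 in library 2 (16 pairs). These include pairs with the Ly6c2 and Ccr2 group. Its cut was passed by 93.2% and 95.3% of these barcodes, so the ratios of its pairs could not rise much above equality. Over all 563 barcodes the ratio ran between 0.785 and 1.15 (21 pairs) and between 0.782 and 1.24 (17 pairs), with the lowest in either library for barcodes of no T subset and the Ly6c2 and Ccr2 group.

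**Figure D4:**
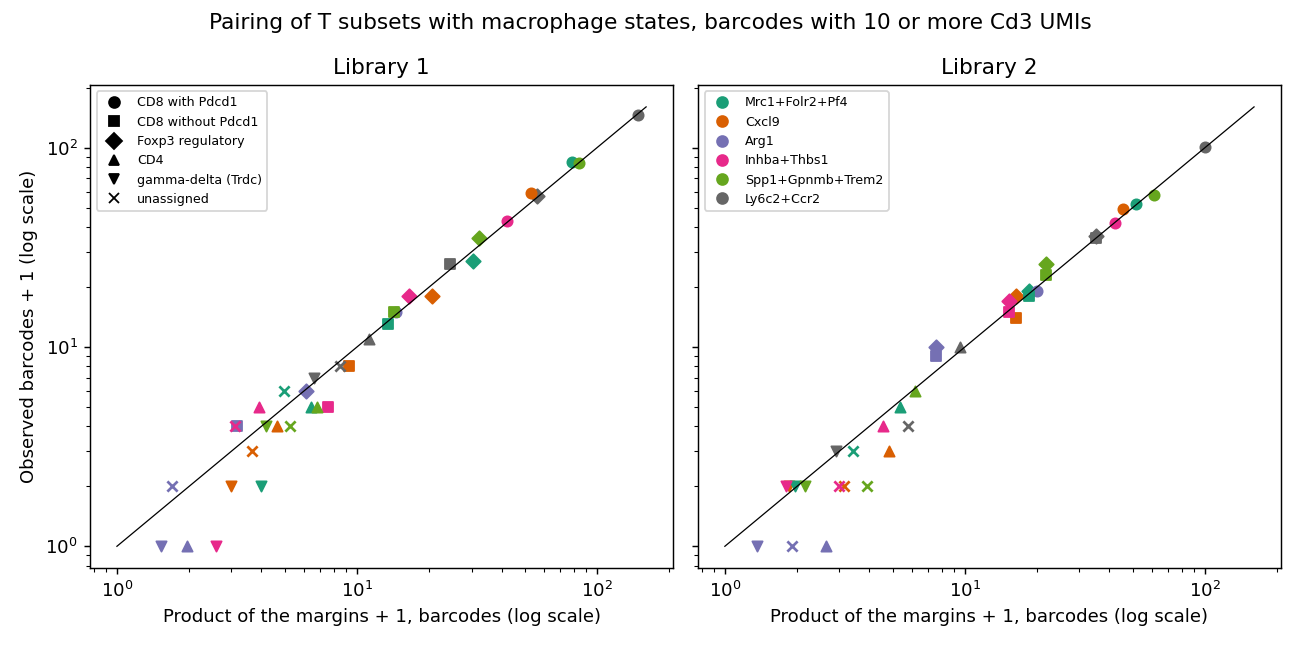
Observed number of barcodes for each pair of T subset (symbol) and macrophage state (colour), plus 1, against the product of their separate frequencies, plus 1, on logarithmic axes, for Cd3 and C1q barcodes with at least 10 Cd3 UMIs. Points follow the line of equality, with ratios between 0.871 and 1.12 in library 1 and between 0.846 and 1.2 in library 2 where the product is at least 10.

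Gene levels across the transcriptome lay close to a mixture of the single kinds. The summed profile of the Cd3 and C1q barcodes was set against a weighted sum of the T-only and macrophage-only profiles, with a T cell weight of 39.4% in library 1 and 45.2% in library 2 taken from the lists of 12 T cell and 12 macrophage genes. The shares of these lists relative to the single kinds, 0.459 and 0.707 in library 1 and 0.489 and 0.594 in library 2, were rescaled to weights. By construction this places genes specific to either lineage above the mixture. For a gene that follows its list, the factor is the sum of both shares of that library. That offset was not taken out of the log2 differences below. Of 5749 genes at 20 CPM or more in the Cd3 and C1q barcodes of both libraries, 91.6% lay within 1.2 times the mixture in library 1 and 90.5% in library 2. More than 2 times above it in both libraries lay 1 gene (0.0174%) and more than 2 times below it lay 0 (0%). That filter on the Cd3 and C1q barcodes favours genes that are higher in them. With 20 CPM asked of the mixture in both libraries instead, a setting chosen after the values were seen, 0 of 5656 genes (0%) lay more than 2 times above and 3 (0.053%) more than 2 times below: Klra4, an NK receptor, and the mast cell proteases Cma1 and Mcpt4. Beyond 1.2 times, a level chosen after the values were seen, 103 genes (1.79%) were higher and 38 (0.661%) were lower in both libraries, and with the filter on the mixture 70 (1.24%) and 57 (1.01%).

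The 1 gene more than 2 times above was Ccl1, which passed the filter only through the Cd3 and C1q barcodes in library 1. It is a chemokine of activated T cells and stood at 48.6 CPM against 12.7 CPM in the mixture of library 1 (log2 difference 1.93) and at 70.3 against 32.1 CPM in library 2 (1.13). It rested on few barcodes: 14 Cd3 and C1q barcodes of library 1 held a Ccl1 UMI and the highest gave 42.9% of the UMIs, and in library 2 6 held one and the highest gave 80.2%.

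Of the 10 genes highest over the mixture at 50 CPM or more, ranked by the lower of the values in both libraries, 3 encode co-stimulatory receptors of T cells. Tnfrsf4, the co-stimulatory receptor OX40, stood at 262 CPM against 182 CPM in the mixture of library 1 (log2 difference 0.52) and at 272 against 184 CPM in library 2 (0.57). Icos, another co-stimulatory receptor, had log2 differences of 0.48 and 0.41, and Tnfrsf9, the co-stimulatory receptor 4-1BB, of 0.36 and 0.58. Nr4a2, a nuclear receptor induced by receptor signalling, had 0.36 and 0.39, and Cish, a cytokine-induced inhibitor of signalling, had 0.46 and 0.35. Outside the T cell genes, Ccl12, a monocyte-attracting chemokine with 614 CPM in Cd3 and C1q barcodes, 21.0 in T-only and 771 in macrophage-only barcodes of library 1, had 0.37 and 0.53. Odc1, the first enzyme of polyamine synthesis, had 0.43 and 0.49, Atp1b3, a sodium pump subunit, 0.40 and 0.44, Mcm5, a replication helicase subunit, 0.35 and 0.40, and Oxct1, an enzyme of ketone body use, 0.34 and 0.33. Mcm5 stood at 46.1 and 38.6 CPM in the mixture, so it did not reach 50 CPM there and was ranked only through its level in the Cd3 and C1q barcodes.

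Lists were counted over genes with at least 20 CPM in the mixture. Of 3 regulatory T cell genes 1 was more than 1.2 times above the mixture in both libraries: Il2ra, the interleukin-2 receptor alpha chain, with log2 differences of 0.52 and 0.38. Foxp3, at 27.9 CPM against 17.9 CPM in the mixture of library 1 and 25.6 against 14.5 CPM in library 2, did not reach that level in the mixture and was not counted. The list's median was 0.23 and 0.37, against 0.03 and 0.02 over all 5656 genes. Of 12 T cell genes 5 were above it: Cd2, Cd5, Lat, Bcl11b and Cd247, with a list median of 0.20 and 0.15. Of 13 cell cycle genes 5 were above it: Mcm3, Mcm5, Cdk1, Tpx2 and Hells, with a list median of 0.34 and 0.26. The share over all genes was 1.24%. The T cell list also set the weight of the mixture, so its median is not independent of it. Like other genes specific to either lineage, its genes carry the offset given above, which the median over all genes does not show. Counts of T cell genes above 1.2 times are therefore not read against the share over all genes. For checkpoint genes 1 of 7 was above it (Nr4a2), for genes of receptor stimulation 2 of 7 (Tnfrsf4 and Tnfrsf9) and for cytotoxic genes 1 of 7 (Ifng, with 0.30 and 0.48). The makeup of the T-only profile was not matched to the Foxp3 and cycling shares given above, and the part of those shares in these values was not tested gene by gene.

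The main macrophage list also set the weight of the mixture and carries the offset given above, so its level against the mixture is not independent of it. Single genes of the state lists lay beyond 1.2 times the mixture. Of 10 measured macrophage genes 0 were beyond 1.2 times in both libraries, with list medians of 0.11 and 0.10, and Cd14, the lipopolysaccharide co-receptor, had the lowest log2 differences, -0.37 and -0.21. Of 6 genes of the Cxcl9 state list 1 was above 1.2 times in both libraries, the interferon-induced GTPase Gbp2b, with 0.44 and 0.46, and the list medians were -0.24 and 0.06. Of 3 genes of the Inhba and Thbs1 list 1 was below it, Thbs1, and the list medians were -0.40 and -0.21. Of the 7 measured genes of MHC class II, which present antigen to CD4 T cells, 0 were beyond 1.2 times in both libraries, with list medians of -0.14 and -0.09. Of 15 genes for the uptake of dying cells and its bridging molecules 5 were measured and 0 were beyond 1.2 times in both libraries. Stab1, a scavenger receptor, had 0.37 in library 1 and 0.03 in library 2. Axl, an uptake receptor, stood at 97.3 CPM against 85.9 in the mixture of library 1 and at 85.1 against 69.3 in library 2. In the type I interferon list the libraries differed in sign, with medians of -0.26 in library 1 and 0.30 in library 2, so no direction was common to both.

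Some granzymes were lower than the mixture, while Gzmb, the main granzyme of cytotoxic T cells, was not, at 643 CPM against 622 CPM in library 1 (log2 difference 0.05) and 1075 against 997 CPM in library 2 (0.11). Gzma, a protease of cytotoxic and NK cells, stood at 148 CPM against 239 CPM in library 1 (log2 difference -0.69) and at 163 against 283 CPM in library 2 (-0.79). Gzmf, a related granzyme, had -0.46 and -0.81, and Txk, a kinase of T and NK cells, had -0.53 and -0.52. NK cell genes were also lower: 6 such genes, among them Ncr1 and Klrb1c, summed to 160.5 CPM in Cd3 and C1q barcodes, against 212 CPM in the mixture of library 1 (-0.40), and to 125.7 against 202 CPM in library 2 (-0.68). With at least 10 Cd3 UMIs, at least 3 Ncr1 and Klrb1c UMIs were found in 7.52% (4.65 to 11.4%) of Cd3 and C1q barcodes, against 6.23% (5.41 to 7.13%) of T-only barcodes, in library 1, and in 7.29% (4.04 to 11.9%) against 5.79% (4.93 to 6.75%) in library 2, at full depth and with intervals that overlapped. Their part in the granzyme values was not tested. Among macrophage and monocyte genes, the chemokine Ccl6 had -0.45 and -0.44, Thbs1 -0.40 and -0.43, Tnfaip2 -0.45 and -0.37 and Ly6c2 -0.40 and -0.41. The mitochondrial ribosomal RNAs mt-Rnr1 (-0.44 and -0.68) and mt-Rnr2 (-0.35 and -0.43) and Lars2, a mitochondrial leucine-tRNA ligase (-0.56 and -0.55), completed the 10 lowest.

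For other granzymes the libraries did not share a value. Gzmd, chosen here after its value was seen, stood at 40.5 CPM against 104 CPM in the mixture of library 1 (-1.36) and at 129 against 120 CPM in library 2 (0.10). Gzmc, chosen likewise, had -0.15 in library 1 and -1.70 in library 2.

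**Figure D5:**
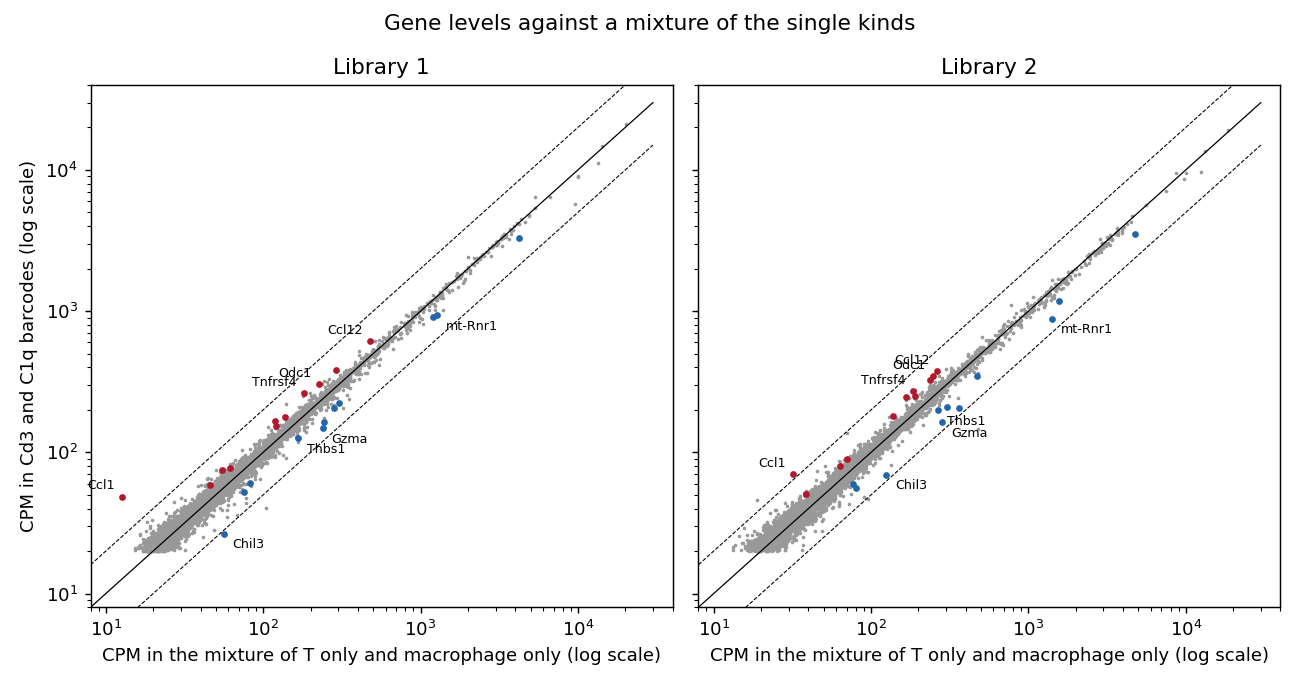
CPM of each of 5749 genes in Cd3 and C1q barcodes (y axis) against the mixture of T-only and macrophage-only profiles (x axis), both logarithmic, with the line of equality and dashed lines at 2 times. Named genes are red where higher and blue where lower than the mixture, and Ccl1 is the only gene above the upper dashed line in both libraries.

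Some barcodes called by genes of other lineages also passed the C1q threshold. The C1q threshold was passed by the 8.27% of Cd3 barcodes in library 1 and 6.30% in library 2 given above, against 11 of 739 NK cell barcodes, or 1.49% (0.745 to 2.65%), in library 1 and 7 of 787, or 0.889% (0.358 to 1.82%), in library 2. NK cell barcodes were those with at least 3 UMIs of Ncr1, an activating receptor, and Klrb1c, the NK1.1 antigen, and with 0 Cd3 UMIs. The intervals did not overlap. Median depth was 8401 UMIs in Cd3 barcodes, against 9764 in NK barcodes, in library 1, and 7318 against 8851 in library 2. The part of depth in these shares was not tested. The Cd3 share of library 1 includes the 68 barcodes with 2 or 3 Cd3 UMIs. With at least 10 Cd3 UMIs, 266 of 3546 barcodes in library 1 passed the C1q threshold (6.66 to 8.42%). In library 2, 192 of 2907 did (5.73 to 7.57%), and these intervals did not overlap those of NK barcodes either. The condition of 0 Cd3 UMIs applied to NK barcodes alone, and with at most 1 Cd3 UMI, added after the values were seen, their shares were 1.37% and 0.914%. B cell barcodes, with at least 5 UMIs of Cd79a, Cd79b and Ms4a1, passed the C1q threshold in 12 of 139, or 8.63% (4.54 to 14.6%), in library 1 and in 9 of 62, or 14.5% (6.86 to 25.8%), in library 2. Cd79b alone stood at 35.6 and 33.3 CPM in macrophage-only barcodes, against 7.84 and 4.57 CPM in T-only barcodes. The B cell call can therefore also take in macrophages. Of the B cell barcodes 24.5% in library 1 and 14.5% in library 2 held at least 2 Cd3 UMIs. Mast cell barcodes, with at least 10 UMIs of 4 granule and protease genes, passed in 2 of 86 and 3 of 89, and neutrophil barcodes, with at least 50 UMIs of S100a8 and S100a9, in 1 of 72 and 3 of 125. The intervals of B, mast and neutrophil barcodes overlapped those of Cd3 barcodes. The median C1q count over all barcodes of a kind was 1 UMI in Cd3 and NK barcodes and 0 in B, mast and neutrophil barcodes of library 1, and 0 in each of these kinds in library 2.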

How the data were processed

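UMI counts per gene and barcode, deposited by the authors as whole numbers without normalisation, came from Cell Ranger version 6.1.2. The version and the mm10 build are as the submitters' processing notes give them. The gene annotation and any subsampling of reads at the joining of the libraries are not given in the sources used here. Coordinates come from GENCODE M21 for IDs that matched with their version. No doublet caller was run and no barcode was removed as a doublet.

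Barcodes entered at 500 or more genes and 10% or less mitochondrial UMIs. The members, the gene lists and the tests were chosen with earlier results of these data known. Shares have exact Clopper-Pearson intervals at 95% (scipy 1.17.1). UMI counts were summed per kind and library and scaled to CPM. Members were compared with a mixture of the T-only and macrophage-only profiles on the log2 scale, with a pseudocount of 0.5 UMI, for genes at 20 or more CPM in members of both libraries. Lists were counted over genes at 20 or more CPM in the mixture. The comparison step was tested on simulated data. Thinning drew 5000 UMIs per barcode without replacement. Median depths, in UMIs, are given beside the results. Named genes are the 6 rule genes, the 10 highest and the 10 lowest against the mixture at 50 or more CPM with the same sign in both libraries, and members of the lists. Genes outside that rule are said to be so. The Cd3 bands, the level of 10 Cd3 UMIs, the 1.2-fold level and the genes scaled to Cd3 or C1q UMIs were chosen after the values were seen. Alternatives to the thresholds, filters, comparison barcodes, depth, average, pseudocount and mixture weight are given at the end.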

Additional observations from a re-analysis of the deposited data

How the results depend on the processing

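Of 164 values under 15 alternatives, 125 stayed within the counting interval of the value reported (for the number of genes beyond 2 times the mixture, within 1.5 times) and 39 did not. With a C1q threshold of 10 UMIs, Cd3 and C1q barcodes were 3.98% of kept barcodes in library 2, the T cell list stood at 1.1 (library 1) and 1.26 (library 2) times T-only barcodes, and the macrophage list at 1.37 and 1.01 times macrophage-only barcodes. With a threshold of 50 they were 3.78% and 2.93%, with the macrophage list at 1.27 in library 1 and the T cell list at 1.33 in library 2. With at least 4 Cd3 UMIs library 1 gave 3.56%, a T cell list of 1.28 and 55.7% CD8 with Pdcd1. With at least 10, added after the values were seen, it gave 3.3%, 1.28, 59% and 1.98 times the depth of macrophage-only barcodes, and the macrophage list stood at 1.35 and 1.05. At least 1000 genes gave a T cell list of 1.1 and 1.28 and, in library 1, a macrophage list of 1.31, and at most 5% mitochondrial UMIs gave a T cell list of 1.1 in library 1. T-only barcodes with 0 C1q UMIs gave 3.22 times their depth in library 1 and a T cell list of 1.3 and 1.36, and means in place of medians gave 2.43 and 2.67 times the depth of T-only barcodes.

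Thinning to 5000 UMIs lowered these shares of Cd3 and C1q barcodes: Foxp3 to 9.07% and 9.66%, CD8 with Pdcd1 to 24.4% and 21.7%, Cxcl9 to 15.9% and 27.1%, the Mrc1 group to 20.4% and 19.3%, and Arg1 to 3.4% and 8.7%. It raised CD8 without Pdcd1 to 21.5% and 36.2% and barcodes of no subset to 41.6% and 29.0%. The number of genes beyond 2 times the mixture in both libraries was 0 at 50 CPM or more, and 3 where 20 CPM was asked of the mixture instead of the Cd3 and C1q barcodes, a setting added after the values were seen. Of these 3, Cma1 and Mcpt4 rested in part on few barcodes of the single kinds. In macrophage-only barcodes of library 1 the highest barcode held 84.4% of the Cma1 UMIs and 75.4% of the Mcpt4 UMIs. In T-only barcodes of library 2 the highest barcode held 38.2% of the Cma1 UMIs and 41.8% of the Mcpt4 UMIs. No paired analysis was possible because each kind of sample had 1 library. Shares per UMI cut depend on depth, and 6 and 2 Trdc barcodes allow no narrow interval.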

Other observations

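Retnla, a secreted protein of alternatively activated and tissue macrophages that was chosen after its values were seen, was unevenly spread. In library 1 the Cd3 and C1q barcodes held 4 Retnla UMIs, at most 1 each, against 2818 UMIs in macrophage-only barcodes, of which 2205 lay in 1 barcode and 610 in another. In library 2 the Cd3 and C1q barcodes held 0 Retnla UMIs, against 5 in macrophage-only barcodes, all in 1 barcode.

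The other genes given here were also singled out after their values were seen. Chil3, a chitinase-like protein of monocytes and macrophages, stood at 26.5 CPM in Cd3 and C1q barcodes, against 56.2 CPM in the mixture of library 1 (log2 difference -1.08), and at 69.3 against 125 CPM in library 2 (-0.85). The heat shock gene Hspa1a stood at 57.4 against 83.3 CPM in library 1 (-0.54) and at 46.4 against 95.6 CPM in library 2 (-1.04). Of the Hspa1a UMIs of macrophage-only barcodes in library 2, 33.3% lay in 1 barcode. Penk, the enkephalin precursor, stood at 28.5 against 21.5 CPM in library 1 (0.40) and at 46.0 against 18.7 CPM in library 2 (1.29), and the highest barcode gave 24.8% and 32.9% of its UMIs in Cd3 and C1q barcodes. In library 2 Penk did not reach 20 CPM in the mixture and passed the filter only through the Cd3 and C1q barcodes.

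S1pr1, a receptor by which T cells leave tissue, and Tcf7, a transcription factor of naive and memory T cells, were lower per Cd3 UMI. Per 100 Cd3 UMIs, S1pr1 had 0.410 UMIs in Cd3 and C1q barcodes, against 0.729 in T-only barcodes, in library 1, and 0.344 against 0.671 in library 2. Tcf7 had 1.02 against 1.31 in library 1 and 0.633 against 1.12 in library 2. Gzmb had 45.8 against 47.1 in library 1 and 58.4 against 58.3 in library 2, while Gzma had 10.5 against 13.1 and 8.87 against 11.8. None of these differences was tested.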
